A study of Mus musculus with 8 samples.

Results

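The genes that hold sister chromatids together and let them go were followed in ovulated mouse oocytes, across total and ribosome-bound mRNA and across maternal age. The 10 genes were chosen by their role and not by a measured value, though with earlier results of these data known. They were the cohesin subunits Rec8, Stag3, Smc1b, Smc3 and Rad21, the shugoshins Sgo1 and Sgo2a, separase (Espl1), securin (Pttg1) and the cohesin release factor Wapl. Of these, 8 were among the 8898 genes of the ribosome-bound table, 9 among the 10530 genes of the total mRNA table and 8 among the 8537 genes in both. A pair of them, Sgo1 and Sgo2a, were listed under the older symbols Sgol1 and Sgol2a and were matched by gene identifier. Stag3 was listed for total mRNA only, and Rec8 was in neither table, so that no value is given for it.

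The oocytes were at metaphase II (MII) and came from female C57BL/6 mice of the genotype RiboTagF/F;Zp3-Cre, in which Cre under the Zp3 promoter, active in growing oocytes, switches on an HA tag on the ribosomal protein RPL22. Young females were 1 month old, and old females were retired breeders of 12 to 15 months. Females of both ages were primed with PMSG (5 IU) and given hCG (10 IU) after 48 h, and ovulated oocytes were retrieved 13 h after hCG. For each age there were 2 pools of 200 oocytes, and each pool gave an input library (total mRNA, from 10% of the lysate) and an HA library (mRNA bound to tagged ribosomes).

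Cohesin is a ring built around a pair of SMC proteins and closed by a kleisin, which keeps sister chromatids together from DNA replication until anaphase. In oocytes the ring is loaded before birth with the meiotic subunits REC8, STAG3 and SMC1B, and its loss from chromosomes with maternal age is a known feature of egg aneuploidy. Shugoshin recruits the phosphatase PP2A to centromeres and protects the kleisin there. Separase cuts the kleisin once its inhibitor securin is destroyed, and WAPL opens the ring without cutting it.

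Values are CPM, the reads of a gene scaled by library size and a TMM factor, with HA and input libraries scaled apart. Between 37817382 and 60052814 reads were recovered per library, and 3 reads, taken as the floor of detection, corresponded to 0.0388 to 0.111 CPM. These floors cover counting error only. All 10 oocyte markers examined, from Zp3 to Gdf9 and Mos, were in both tables, and their summed input level was 8887 to 9162 CPM in old and 9943 to 9991 CPM in young libraries. In HA their summed level was 11954 to 17921 CPM in old and 11253 to 12229 CPM in young libraries. Of 12 cumulus and granulosa cell markers, 8 were in the input table (summed level 32.5 to 114 CPM in old and 90.4 to 184 CPM in young libraries) and 3 in the HA table (81.7 to 83.8 CPM in old and 156 to 182 CPM in young), whereas Foxl2, Amh, Cyp11a1 and Ptx3 were in neither. None of 8 blood cell markers was listed. Of 8 oviduct markers only Epcam was listed, in the input table, at 0.963 to 57.6 CPM in old and 0.0581 to 3.29 CPM in young libraries. The part of these cells in the results below was not tested. In pooled cells, fewer cells of a type and less RNA per cell cannot be told apart.

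In total mRNA, transcripts of the securin, SMC3 and WAPL genes were the most abundant of the group per kilobase of exon, and those of STAG3 and SGO2 the least. Reads had been counted over whole genes, introns included, so that a level per kb of exon is approximate. In the young input libraries the mean level was 168 CPM per kb for Pttg1, 110 for Smc3, 71.3 for Wapl, 44.8 for Rad21, 35.4 for Sgo1, 17.5 for Espl1, 17.4 for Smc1b, 5.50 for Sgo2a and 0.0646 for Stag3. Neighbours in this order did not overlap between the young pools, except for Espl1 and Smc1b. Securin transcripts stood above separase transcripts in each library, by 6.56-fold to 13.3-fold per kb in input and by 4.38-fold to 12.2-fold in HA, and these ratios overlapped between the ages. The meiotic SMC subunit gene Smc1b lay far below its partner Smc3, at a per-kb ratio of 0.0863 and 0.135 in old input libraries, against 0.185 and 0.140 in young ones. In the HA libraries Pttg1 again led in young pools (262 CPM per kb), followed by Smc3 (122) and Wapl (121), which overlapped. In old HA pools Pttg1 (280), Wapl (250) and Smc3 (200) each overlapped with the next in order.

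**Figure D1:**
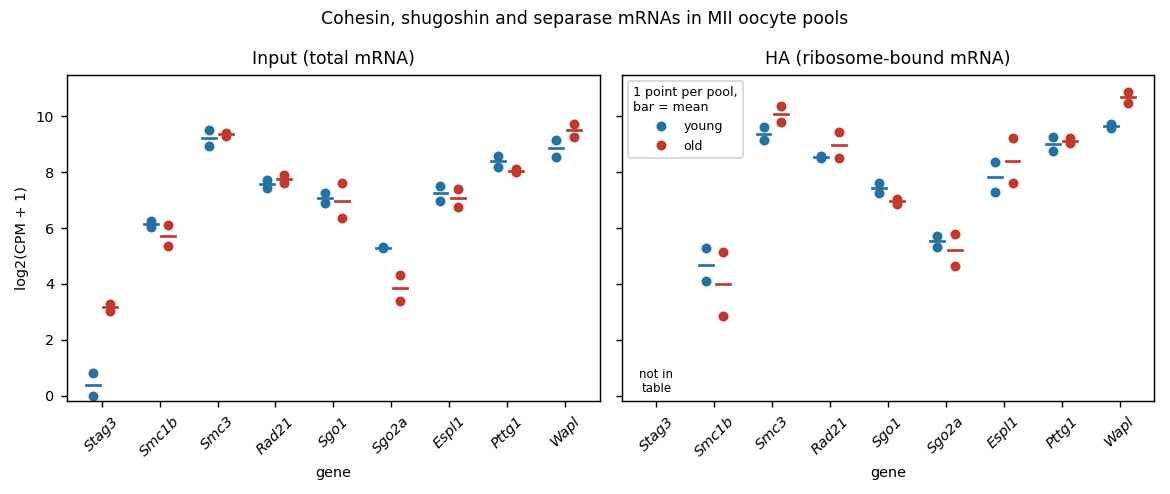
Levels of the listed genes in the input (left) and HA (right) libraries, as log2(CPM + 1), with 1 point per pool of 200 oocytes (young in blue, old in red) and a bar at the mean of 2 pools. Wapl and Smc3 lie at the top of both panels, both old Wapl points lie above both young ones in each panel, and Stag3 is near the bottom of the input panel.

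The first question was which of these mRNAs were carried by ribosomes at MII. Most of the group was found on ribosomes to a greater degree than the typical transcript. The translation efficiency (TE) of a gene in a pool is HA CPM over input CPM. Since the tables were scaled separately, log2 TE is given relative to the median of all 8537 genes in the same pool. On this scale Rad21, Wapl, Espl1, Pttg1, Sgo2a and Smc3 were above the pool median in 4 of 4 pools, as were 15.5% of all genes. Sgo1 was above it in 3 pools, and Smc1b in 1. The share of genes above the median in all 4 pools was higher at high mean input CPM, from 28.2% in the decile of genes that holds Rad21, Sgo1 and Espl1 to 37.7% in the most abundant decile, which holds Smc3, Pttg1 and Wapl. It was 10.1% in the decile that holds Sgo2a.

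For Rad21, the kleisin of mitotic cohesin, log2 TE relative to the median was 1.03 and 2.43 in old and 1.21 and 1.59 in young pools. The 4-pool estimate was 1.56 (SE 0.42), with an adjusted p of 0.197 in limma with Benjamini-Hochberg adjustment over all genes. For Wapl it was 1.63 and 1.75 in old and 1.44 and 0.99 in young pools, with an estimate of 1.45 (SE 0.36, adjusted p = 0.191). Every pool of both genes lay well above the median transcript. Securin stayed within a narrow band, at 1.66 and 1.54 in old and 1.10 and 0.99 in young pools (estimate 1.32, SE 0.36, adjusted p = 0.197). Its target separase had a like estimate (1.43, SE 0.45, adjusted p = 0.220) from scattered pools, at 2.24 and 1.46 in old and 1.80 and 0.21 in young oocytes. Sgo2a, the shugoshin that guards cohesin in meiosis I, gave 1.25 (SE 0.36, adjusted p = 0.202), and Smc3 gave 0.91 (SE 0.37, adjusted p = 0.281). The less loaded pair was Sgo1, at 0.63 (SE 0.41, adjusted p = 0.458), and Smc1b, at -1.13 (SE 0.71, adjusted p = 0.448). Smc1b ranged from -2.65 to 0.24 across pools, so that its place below the median rested on 3 of them.

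In limma no gene passed an adjusted p of 0.05 in this comparison (0 of 8537, 0.00%), and the smallest adjusted p was 0.191. Without adjustment, 5 of 8 members had p under 0.05, all above the median (Rad21, Wapl, Espl1, Pttg1 and Sgo2a), against 18.0% of all genes and 11.0% counting only those above it. This count was 5 in the old pools alone (against 1766 of all 8537 genes) and 0 in the young pools alone (against 359). It was 2 when log2 TE was not centred on the pool median (against 1629). No member's estimate changed sign when a pool was left out, with Sgo1 at 0.33 to 0.94 and Smc1b at -1.85 to -0.41. The median over the 8 members was 1.29, with 7 of 8 above 0, against -0.09 over all genes, of which 46.8% were above 0. EdgeR's quasi-likelihood test was run on recovered reads with the pool as a block. It used TMM factors over the 8 libraries in place of centring on the pool median. After adjustment it called 180 genes (2.11%, and 2.01% counting only those higher in HA than in input), 3 members among them: Wapl (log2 1.41, adjusted p = 0.0259), Rad21 (1.52, adjusted p = 0.0393) and Pttg1 (1.28, adjusted p = 0.0451). The call of these 3 genes thus depended on the test.

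**Figure D2:**
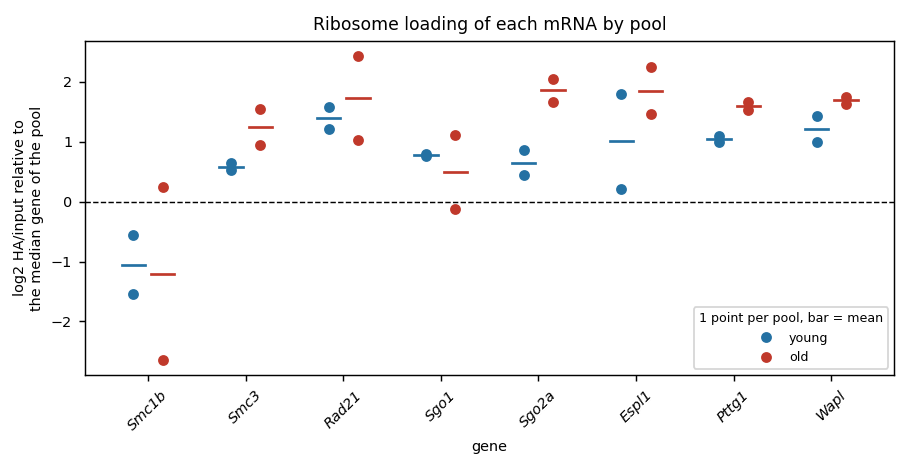
Log2 of HA over input for each gene, relative to the median gene of the same pool (dashed line at 0), with 1 point per pool (young in blue, old in red) and a bar at the mean of 2 pools. Wapl, Pttg1 and Rad21 lie above the line in 4 of 4 pools, and Smc1b lies below it in 3.

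**Figure D3:**
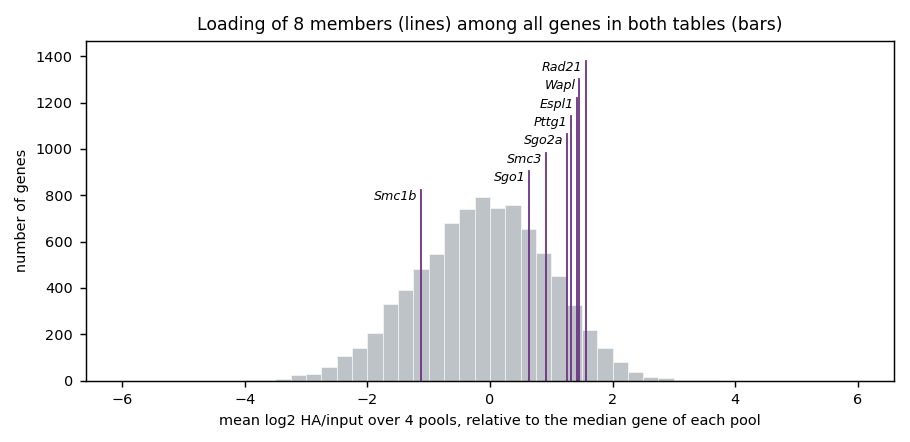
Distribution of the 4-pool mean of log2 HA over input, relative to the pool median, for the 8537 genes in both tables (bars, number of genes), with a line for each of 8 members whose height has no meaning. Of the members, 7 lie to the right of 0 and Smc1b lies at -1.13.

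Translation in maturing oocytes is in part directed by the cytoplasmic polyadenylation element (CPE), a short U-rich motif in the 3'-UTR that is bound by CPEB1, and the study asked how CPEB1 acts with age. The CPE was searched as TTTTAT or TTTTAAT on the transcript strand of the longest 3'-UTR of each gene (GENCODE M21, GRCm38). A match is a description of sequence and not evidence of binding. The motif was present in 6 of the 10 genes, and 70.7% of 7930 3'-UTRs of genes in both tables held at least 1. Wapl had 9 matches in 2293 bases, Smc3 had 5 in 1055, Sgo2a had 4 in 1100, Rad21 had 3 in 1816, Sgo1 had 2 in 1814 and Pttg1 had 1 in 796. Among 3'-UTRs of like length (0.8 to 1.25 times), 90.4% held the motif for Wapl, with a median of 3 matches, and 61.0% for Pttg1. No match was found in the short 3'-UTRs of Espl1 (142 bases), Smc1b (273), Stag3 (349) and Rec8 (34). Of the 6 genes with the motif, Wapl, Sgo1 and Sgo2a had a match within 150 bases of the 3' end, as did 28.4% of 7591 3'-UTRs at least that long. The match nearest the 3' end is shown for each gene with its surroundings (30 bases, 5' to 3', motif in capitals), to show the site and its place.
Wapl: atcctatttttaTTTTATacagtatttctc
Smc3: ttagaaaagcagTTTTATgtgggattcaga
Rad21: aagtgttggcacTTTTATgggggggaaatc
Sgo1: tgaaacatgtatTTTTATaaaatatgtatt
Sgo2a: acttatgtatcaTTTTATcattaattctct
Pttg1: ttgccggtctgaTTTTATgattttgtgaga
On GRCm38 these lie at chr14:34747832-34747861 (plus strand), chr19:53645596-53645625 (plus), chr15:51962958-51962987 (minus), chr17:53674910-53674939 (minus), chr1:58025825-58025854 (plus) and chr11:43420626-43420655 (minus), in the order shown, each within the annotated 3'-UTR. The motifs end 134, 220, 730, 136, 57 and 374 bases before the annotated 3' end.

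The second question was whether these mRNAs differ with maternal age. In ribosome-bound mRNA, Wapl and Smc3 were higher and Sgo1 was lower in both old pools than in both young pools. In total mRNA, Wapl was higher and Sgo2a and Pttg1 were lower in both old pools. Stag3 is left out of the counts below, since it was listed in input only through its old libraries. No member passed an adjusted p of 0.05 in limma in HA (0 of 8 members, 0 of 8898 genes, 0.00%), in input (0 of 8 members, 1 of 10530 genes, 0.00950%) or in TE (0 of 8 members, 0 of 8537 genes, 0.00%). At an unadjusted p under 0.05 there was 1 member in HA (Wapl, against 14.7% of all genes, 4.28% higher in old), 0 in input (against 6.18%) and 0 in TE (against 6.56%). Groups that did not overlap were common with 2 pools against 2. In HA they were seen for 3 of 8 members, 2 higher and 1 lower in old, against 41.9% of all genes (17.2% higher, 24.7% lower). In input they were seen for 3 of 8, 1 higher and 2 lower, against 35.3% (16.4% higher, 18.9% lower), so that the members' shares lay near those of all genes. In TE they were seen for 4 of 8 members, Smc3, Sgo2a, Pttg1 and Wapl, all higher in old, against 37.6% of all genes (17.2% higher, 20.4% lower), and under quantile scaling the direction was lost for Smc3, Pttg1 and Wapl. Members called after adjustment were also 0 by edgeR's likelihood ratio test, against 3.32% of genes in HA and 0.475% in input, and 0 by DESeq2, against 5.71% and 1.08%. An exact permutation test on such groups cannot give a two-sided p below 0.333.

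The WAPL transcript (ENSMUSG00000041408.16, GRCm38 chr14:34673928-34747983) had the largest age difference among the members in HA under the deposited scaling. Its ribosome-bound level was 1428 and 1888 CPM in old and 767 and 841 CPM in young pools. The lowest old pool lay far above the highest young pool. The means were 1658 ± 325 and 804 ± 52.0 CPM (SD, n = 2 each), a 2.06-fold ratio, and the log2 difference was 1.03 (SE 0.35, 95% interval 0.19 to 1.87, unadjusted p = 0.0233, adjusted p = 0.298 in limma). Under quantile scaling of the HA libraries the difference was 0.30, and with libraries scaled to their sums it was 0.39. It was then smaller than the difference of Sgo1 (-1.02 and -1.12). Of the most abundant decile of HA genes, which holds Wapl, 53.1% had both old pools above both young ones, the median difference was 0.61, and 25.6% of genes had a difference at or above that of Wapl. In input Wapl was at 619 and 853 CPM in old and 377 and 568 CPM in young pools (log2 difference 0.65, SE 0.29, adjusted p = 0.778). Both old values were again above both young ones, as were those of 29.0% of genes in the most abundant input decile, and 4.52% of all genes had this pattern in both tables. Its TE was 2.31 and 2.21 in old and 2.04 and 1.48 in young pools, without overlap (log2 difference 0.38, SE 0.69, adjusted p = 0.932), and this difference was -0.23 under quantile and -0.07 under sum scaling.

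Within the core ring, Smc3 (ENSMUSG00000024974.10, chr19:53600398-53645833) was at 898 and 1314 CPM in old and 567 and 789 CPM in young HA libraries. These groups did not overlap (log2 difference 0.70, SE 0.40, 95% interval -0.25 to 1.65, adjusted p = 0.510), but the direction was lost under quantile scaling (-0.01). Smc3 shares the most abundant HA decile with Wapl, where 53.1% of genes had both old pools above both young ones. The median difference in that decile was 0.61, and 43.4% of its genes had a difference at or above that of Smc3. Its input level overlapped between the ages, at 629 and 685 CPM in old and 485 and 739 CPM in young. The TE of Smc3 was 1.43 and 1.92 in old and 1.17 and 1.07 in young pools (log2 difference 0.57, SE 0.70, adjusted p = 0.889), also without overlap. Since WAPL acts on the ring that SMC3 forms, the ratio of their transcripts was taken within each library, where the scaling between libraries cancels. Per kb it was 1.33 and 1.20 in old and 1.13 and 0.892 in young HA libraries, and 0.822 and 1.04 in old and 0.650 and 0.643 in young input libraries. Wapl was thus higher relative to Smc3 in both old pools of each table. Of the 6 ratios computed, chosen after seeing the data and not tested, Wapl to Rad21 was also higher in old HA libraries (2.50 and 1.73 against 1.35 and 1.40) and overlapped in input. In input, the ratio of Smc1b to Smc3 was lower and that of Sgo1 to Sgo2a higher in both old pools, and both overlapped in HA. The other ratios overlapped in both tables. The share of all gene pairs with such a separation was not computed.

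The kleisin gene Rad21 (ENSMUSG00000022314.9, chr15:51962240-51991747) was at 365 and 697 CPM in old and 364 and 382 CPM in young HA libraries, so that only old pool 2 stood apart (log2 difference 0.43, SE 0.46, adjusted p = 0.790). In input it was at 240 and 196 CPM in old and 208 and 171 CPM in young pools, with overlap. The meiotic subunit gene Smc1b (ENSMUSG00000022432.6, chr15:85064689-85131964) was scattered in HA, at 34.7 and 6.21 CPM in old and 16.2 and 37.6 CPM in young pools (log2 difference -0.68, SE 1.36, 95% interval -3.93 to 2.56). Old pool 2 held the lowest value, and the interval spans a large change in either direction. In input Smc1b was at 39.6 and 67.6 CPM in old and 65.6 and 75.5 CPM in young pools, again overlapping (log2 difference -0.44, SE 0.46, adjusted p = 0.923).

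STAG3 is the meiotic subunit that bridges the ring and its partners. Its gene (ENSMUSG00000036928.14, chr5:138280240-138312393) was close to the lower limit of the input table, in which every gene has at least 0.885 CPM in 2 libraries. Old input libraries held 391 and 438 Stag3 reads, against 51 and 0 in young ones, which is 7.18 and 8.79 CPM against 0.740 and 0 CPM. Both old pools lay above both young ones, and the young pool without a read allows a level of up to 0.0788 CPM (3 reads). Both young values were below that limit, so that the gene was listed through its old libraries alone and had to differ in this direction. Its levels are therefore given as a description, with no test.

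Among the protectors of centromeric cohesin, Sgo1 (ENSMUSG00000023940.14, chr17:53674786-53689333) was at 130 and 116 CPM in old and 151 and 196 CPM in young HA libraries. The old pools were below the young ones (123 ± 10.1 against 173 ± 31.9 CPM, log2 difference -0.48, SE 0.52, adjusted p = 0.793). Quantile scaling gave -1.02 and sum scaling -1.12. In its abundance decile of HA genes the median difference was 0.42, and 87.0% of genes had a difference at or above that of Sgo1. In input Sgo1 overlapped, at 80.7 and 193 CPM in old and 118 and 152 CPM in young pools. Sgo2a (ENSMUSG00000026039.9, chr1:57995971-58025899) differed in the other table. Its input level was 9.54 and 19.1 CPM in old and 38.6 and 38.4 CPM in young pools (14.3 ± 6.73 against 38.5 ± 0.117 CPM, log2 difference -1.44, SE 0.69, 95% interval -3.03 to 0.15, unadjusted p = 0.0699, adjusted p = 0.778). The young pools were nearly equal and both lay above the old ones. In HA Sgo2a overlapped, at 23.9 and 53.7 CPM in old and 39.3 and 52.2 CPM in young pools, and its TE was 2.50 and 2.82 in old and 1.02 and 1.36 in young pools (log2 difference 1.12, SE 0.69, adjusted p = 0.781). Both old pools lay above both young ones. It was the largest TE difference among the members under the deposited scaling, whereas under sum scaling that of Sgo1 (-0.83) was larger than that of Sgo2a (0.67). Per kb the ratio of Sgo1 to Sgo2a in input was 15.6 and 18.7 in old against 5.64 and 7.26 in young pools. Sgo2a shares 22986 bases with Kctd18 on the opposite strand, and the reads were counted without strand, so that reads in that stretch cannot be told apart. Kctd18 was listed in input at 9.56 and 24.0 CPM in old and 10.5 and 10.3 CPM in young pools, and in HA at 50.7 and 41.9 CPM in old and 46.7 and 4.83 CPM in young pools. Its part in the Sgo2a values was not tested.

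The protease and its inhibitor showed no separation by age on ribosomes. Espl1 (ENSMUSG00000058290.3, chr15:102296266-102324357) was at 599 and 194 CPM in old and 329 and 155 CPM in young HA libraries, with the spread inside each age as wide as the spread between them (log2 difference 0.59, SE 0.68, adjusted p = 0.811). In input it was at 169 and 107 CPM in old and 125 and 181 CPM in young pools. Pttg1 (ENSMUSG00000020415.16, chr11:43420250-43426251) was at 599 and 522 CPM in old and 615 and 433 CPM in young HA libraries (log2 difference 0.12, SE 0.40, 95% interval -0.84 to 1.08). These values overlapped, whereas its input level did not, at 254 and 273 CPM in old and 381 and 293 CPM in young pools (log2 difference -0.34, SE 0.27, adjusted p = 0.892). Its TE was 2.36 and 1.91 in old and 1.61 and 1.48 in young pools, without overlap (log2 difference 0.46, SE 0.68, adjusted p = 0.913).

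**Figure D4:**
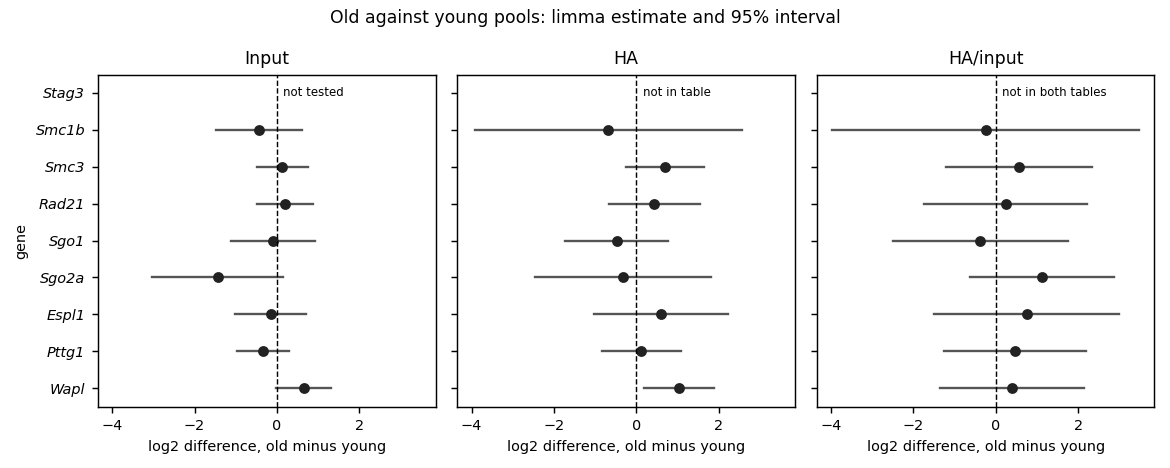
Log2 difference of old minus young pools for each gene in input, HA and HA over input, with the limma estimate as a point and its 95% interval as a line (2 pools per age). The interval lies above 0 for Wapl in HA (0.19 to 1.87), before adjustment for the number of genes, and spans 0 for every other value shown. No test result is shown for Stag3, which was listed in input only through its old libraries.

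Over the members other than Stag3, the median log2 age difference was 0.28 in HA (5 of 8 above 0, against a median of -0.14 and 45.9% above 0 over all genes), -0.13 in input (3 of 8, against -0.03 and 48.6%) and 0.42 in TE (6 of 8, against -0.10 and 47.1%). Genes of like abundance differed from all genes in HA. The median difference was 0.61 in the decile that holds Smc3, Rad21, Espl1, Pttg1 and Wapl, and 0.42 in that of Sgo1. It was -0.02 in the decile of Sgo2a and -0.27 in that of Smc1b. Only Smc3 and Wapl lay above the median of their own decile. The members' medians in HA and TE turned with the scaling. Under quantile scaling they were -0.32 in HA (2 of 8 above 0) and -0.04 in TE (3 of 8), and under sum scaling -0.36 in HA (2 of 8) and -0.03 in TE (4 of 8). Other scalings moved the HA median of all genes from -0.14 to -0.05 (quantile) and to -0.68 (sums), and the share of genes higher in old oocytes among those with an unadjusted p under 0.05 from 29.1% to 52.4% and 8.03%. They moved the TE median of all genes from -0.10 to -0.03 (quantile) and to -0.48 (sums). Under sum scaling the members' medians in HA and TE thus stayed above those of all genes, and under quantile scaling they were below.

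Related genes were examined in the same libraries, and none of them passed an adjusted p of 0.05 in limma in any comparison. The medians below include genes listed through the libraries of 1 age alone (Rad21l, Ncaph2 and Hormad2 in HA, Dmc1 and Hormad1 in input), whose direction that listing fixed, as it did for 11.2% of all HA genes and 4.72% of all input genes. The other cohesin subunits, loaders and regulators (12 of 12 in both tables) had a median age difference of -0.09 in HA and 0.01 in input, and a median loading of -0.03, against 1.29 for the members. For the lists below, of shugoshin partners, passenger complex, condensin and SMC5/6, and meiotic axis, the median loading was -0.12, 0.38, 0.18 and 0.0004. The lists were not matched for input level. Over all genes the median loading was 0.34 in the most abundant input decile and -0.61 in decile 4. Of the most abundant other cohesin genes, the loader gene Nipbl overlapped between ages in HA, at 287 and 628 CPM in old and 258 and 513 CPM in young pools. The SMC3 acetyltransferase gene Esco1 was at 268 and 399 CPM in old and 169 and 250 CPM in young HA libraries, without overlap (adjusted p = 0.656). The partners of shugoshin in protection, mainly PP2A subunits, were tested for 11 of 14 genes, with a median of -0.26 in HA and 0.18 in input. Of these the kinase gene Bub1, whose product marks the site where shugoshin binds, was at 189 and 190 CPM in old and 110 and 150 CPM in young HA libraries, and the Polo kinase gene Plk1 overlapped. The 5 genes of the chromosomal passenger complex had a median of 0.36 in HA and 0.22 in input. Its borealin gene Cdca8 had a loading of 1.57 (SE 0.37, adjusted p = 0.191), and Incenp one of -0.29 (SE 0.52).

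Of the condensin and SMC5/6 genes, 12 of 15 were tested, with a median of 0.15 in HA and -0.14 in input. Smc6 was at 656 and 896 CPM in old and 282 and 253 CPM in young HA libraries (log2 difference 1.52, adjusted p = 0.297), without overlap, and Smc4 at 1144 and 1357 against 387 and 1077 CPM. The meiotic axis and synaptonemal complex genes were tested for 4 of 12 in HA and 7 of 12 in input (medians -0.07 and -0.48), and both Sycp2 and Syce2 overlapped between ages in both tables.

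The genes whose levels over the 8 libraries were most like those of 3 abundant members were found by the root mean square (RMS) difference of log2(CPM + 1), each gene centred on its mean in each table. For Wapl they were Rac1 (RMS 0.127) and Gm1965 (0.138), against a median of 1.03 over 8536 genes. For Smc3 they were Brdt (0.0918) and Ranbp9 (0.0961), against 0.963, and for Pttg1 they were Virma (0.0718) and Cdh1 (0.0944), against 0.880.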

How the data were processed

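RiboTag IP/RNA-Seq data comprised HA and input libraries of 2 young and 2 old pools of MII oocytes (8 libraries). Reads had been trimmed with Trimmomatic 0.36, aligned to mm10 with HISAT2 and counted with HTSeq over whole genes of GENCODE M11, introns included and without strand. The authors deposited CPM after TMM normalization, set separately for HA and input, so the columns hold a scaled signal and not counts. The study's stated cutoff was 10 CPM in 2 or more libraries, but genes with lower values are listed (the second highest value of a gene was as low as 0.788 CPM in HA and 0.885 CPM in input). Every value (100%) was a whole multiple of 1 read (tolerance 0.01 read), and reads were recovered from them. The study describes the pools as independent samples, but the labels name no animals, so p-values measure the spread between pools, which may be technical. Levels were compared with limma 3.58.1 (lmFit, eBayes with trend) on log2(CPM + 1), old minus young (two-sided), and p-values were adjusted by Benjamini-Hochberg across the whole table. TE per pool was HA over input, which share a lysate, and its 4-pool mean was tested against the pool median with age as a covariate. Alternatives were other pseudocounts, filters and scalings, a replicate block, leaving out each pool, and edgeR 4.0.16 (likelihood ratio and quasi-likelihood tests) and DESeq2 1.42.0 on recovered reads. Lengths, coordinates and 3'-UTRs came from GENCODE M21, in which 99.7% of HA and 99.8% of input gene identifiers were found. All members were named, and of each related list the 2 genes with the highest mean input CPM, with any past the adjusted threshold. Members and lists were chosen with earlier results of these data known. R 4.3.3, Python 3.11.15, numpy 2.4.6, pandas 2.3.3 and matplotlib 3.10.9 were used.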

Additional observations from a re-analysis of the deposited data

How the results depend on the processing

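No member passed an adjusted p of 0.05 in an age comparison under any alternative run. Over all genes, the HA calls, 0 in limma (1311 at an unadjusted p under 0.05), were 9 with the replicate block, 295 by edgeR's likelihood ratio test, 508 by DESeq2, 0 by the quasi-likelihood test, and 0 to 634 when a pool was left out (393 without old pool 1, 634 without young pool 2). The input calls, 1 in limma, were 50, 114 and 0 by those tests and 0 to 2 without a pool. In HA against input, 3 members and 180 genes were called by the quasi-likelihood test and 0 in limma. Same-numbered old and young pools share only a number (correlation of their deviations 0.0786 in HA, 0.0269 in input, 0.0108 in TE), and the replicate block changed no member's call. In HA the direction reversed for Smc3 under quantile scaling (-0.013), for Rad21 under quantile (-0.23) and sum (-0.20), for Espl1 under sum (-0.050) and for Pttg1 under quantile (-0.58) and sum (-0.52). In input it reversed for Smc3 under quantile (-0.012) and sum (-0.056), and for Sgo1 by both edgeR tests (0.022) and DESeq2 (0.041). In TE it reversed for Smc1b under quantile (0.14) and by the quasi-likelihood interaction (0.0039), for Smc3 (-0.0014), Rad21 (-0.29), Pttg1 (-0.081) and Wapl (-0.23) under quantile, and for Rad21 (-0.22) and Wapl (-0.070) under sum. The causes were not tested. Leaving out a pool gave log2 ranges across 0 for Smc1b (-1.84 to 0.47), Rad21 (-0.030 to 0.90), Sgo2a (-0.90 to 0.24), Espl1 (-0.22 to 1.40) and Pttg1 (-0.14 to 0.37) in HA, for Smc3 (-0.17 to 0.44), Sgo1 (-0.72 to 0.53) and Espl1 (-0.49 to 0.17) in input, and for Smc1b (-1.78 to 1.28), Rad21 (-0.38 to 0.85), Sgo1 (-1.09 to 0.33) and Espl1 (-0.058 to 1.55) in TE. A lone pool is then assumed to vary like the other age. Wapl in HA stayed above 0 in all 14 alternatives, from 0.30 to 1.26, with adjusted p from 0.0965 to 0.831. There were 2 pools per age, and the parts of pool spread and read depth in these ranges were not tested.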
